A study of Mus musculus with 12 samples.

Results

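The 8 gene families that carry most of axon guidance signalling, namely the Slit ligands with their Robo receptors, the semaphorins (Sema) with the plexins (Plxn), and the ephrins (Efna, Efnb) with the Eph receptors (Epha, Ephb), were followed in mouse cortex after chronic ethanol drinking and abstinence. Members were taken from the table of counts by a pattern of gene symbols that uses no measured value, though the set was picked with earlier results of these data known. The symbol pattern found 59 of 33024 gene symbols: 20 semaphorins, 9 plexins, 9 Epha and 5 Ephb receptors, 5 Efna and 3 Efnb ephrins, 3 Slits, 4 Robos and 1 antisense RNA, Plxna4os1, which lies inside the Plxna4 gene and is described apart. The filter on low counts kept 57 of the 59 for testing. The other two were Efna4, at 0.228 ± 0.203 CPM (counts per 1000000 counts of the library after TMM scaling; SD, n = 7) in Control and 0.176 ± 0.101 CPM (n = 5) in EtOH mice, and Plxna4os1, at 0.185 ± 0.157 CPM and 0.199 ± 0.124 CPM.

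Bulk RNA of the cortex was sequenced from 12 wild-type C57BL/6 mice, 7 water-drinking controls (Control) and 5 mice that drank ethanol (EtOH), each library from a separate mouse. The EtOH mice were offered 20% (v/v) ethanol beside water in a 2-bottle choice drinking-in-the-dark paradigm (2BC-DID) for 12 h a session over 35 sessions from 30 days of age, and then abstained for 14 days, the arm called Arm #2 in the study. Control mice had water in both bottles over the same time. Both groups went through behavioural tests and saline perfusion before the cortex was taken, and no transgene or deletion was involved. The comparison asked how the cortical transcriptome differed between the groups after abstinence, and with a single time point it does not show whether a difference was present during the drinking.

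Total counts ran from 31768079 to 40690226 in Control (median 32166770) and from 32048725 to 42183031 in EtOH mice (median 32947639), so that a floor of 3 counts stood at 0.0711 to 0.0944 CPM. The tissue carried its cortical markers in both groups, with a summed level of 10 cortical neuron genes at 2682 to 3238 CPM in Control and 2638 to 3183 CPM in EtOH. Within that list Fezf2 was called higher and Lamp5 lower, and 4 genes were higher and 2 lower at an adjusted p under 0.05. All 14 of 14 striatal markers were called lower, with a summed level of 1566 to 3071 CPM in Control and 479.6 to 547 CPM in EtOH mice, and 8 of 10 hippocampal markers were called higher (139 to 181 against 268 to 366 CPM). The 8 oligodendrocyte genes summed to 4453 to 5916 CPM against 2982 to 5322 CPM, with 2 called lower and all 8 lower at an adjusted p under 0.05, and the choroid plexus genes to 7.86 to 21.7 CPM against 11.5 to 991 CPM, with 3 of 5 tested called higher and EtOH mice 1, 3 and 4 above 90 CPM of Ttr alone. The oligodendrocyte and choroid plexus sums overlapped between the groups. There was no overlap for astrocytes (937 to 1051 against 1115 to 1221 CPM, 1 of 7 called higher and 4 higher without a fold minimum), microglia (338 to 375 against 284 to 308 CPM, 1 of 8 called lower and 5 lower without a fold minimum), interneurons (855 to 1119.8 against 739.9 to 791 CPM, 1 of 7 called lower, with 1 higher and 2 lower without a fold minimum) and thalamus (53.1 to 58.4 against 65.9 to 89.6 CPM, 1 of 6 called higher and 3 higher without a fold minimum), and again overlap for oligodendrocyte precursors (0 of 6 called, with 2 higher and 2 lower without a fold minimum), endothelium (1 of 8 called lower, Emcn), meningeal fibroblasts (1 of 6 called higher, Dcn), mural cells and blood (0 of 11 at an adjusted p under 0.05 by edgeR, and 0 at an unadjusted p under 0.05). No marker in any of these lists stood at 0 throughout a group. Guidance genes differ between brain regions and cell types, and the part of these marker differences in the results below was not tested. A different regional make-up of the dissected tissue and the ethanol drinking cannot be told apart in these libraries, and this holds for every difference between EtOH and Control mice given here.

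Guidance cues were named for steering growth cones in the embryo. Slits are secreted proteins that repel growth cones through Robo receptors; semaphorins signal through plexins, the secreted class 3 members mostly with a neuropilin as co-receptor; ephrins, held on the membrane by a lipid anchor (A) or a transmembrane segment (B), bind Eph receptor tyrosine kinases and can also signal back into their own cell. In the adult cortex and hippocampus these genes stay expressed in neurons, glia and vessels, where they are known for roles in dendritic spines, synapses and myelin.

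More guidance ligands and receptors were higher than lower in the EtOH mice. Of the 57 tested, 8 were called higher, meaning that the adjusted p was under 0.05 with more than 0.5 on the log2 scale (edgeR quasi-likelihood test, Benjamini-Hochberg adjustment over 16059 genes): Slit1, Slit3, Epha6, Ephb2, Plxna1, Plxna3, Sema4g and Efna1. Across all genes 4.20% were called higher and 4.09% lower, and none of the 57 was called lower. Without a fold minimum, 20 members were higher and 5 lower, where 12.1% of all genes were higher and 11.6% lower by that rule. The median log2 fold change of the members was 0.09, with 37 positive and 20 negative, beside a median of 7.2e-05 over all genes. Every EtOH mouse lay above every control for 12 members and below for 2, and over all genes this held for 4.84% and 4.96%. Without the deepest library of each group (Control mouse 5 and EtOH mouse 1) 9 members were called higher, and without the 3 EtOH mice of high Ttr 8 were, of which 6 are shared with the 8 above. None was called lower in either case. Leaving out the 3 EtOH mice of high Ttr, 13 of 58 tested ligands and receptors were higher and 4 lower without a fold minimum. Of all genes, 3.68% were higher and 4.31% lower in that fit. Leaving out the deepest libraries, 20 of 57 were higher and 4 lower, where 13.5% of all genes were higher and 11.5% lower. In bulk tissue, fewer cells of a type and less RNA per cell cannot be told apart.

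At an adjusted p under 0.05, 3 of 3 Slits, 7 of 9 plexins, 4 of 9 Epha receptors, 1 of 5 Ephb receptors, 4 of 20 semaphorins and 1 of 4 tested Efna ephrins were higher, while 3 semaphorins, 1 Ephb receptor and 1 of 3 Efnb ephrins were lower and 0 of 4 Robos passed in either direction. Median log2 fold changes were 0.66 for Slits, 0.42 for plexins, 0.31 for Epha and 0.08 for semaphorins, and -0.18 for Efnb ephrins. By role, 12 of 27 receptors were higher and 1 lower, with a median of 0.22, against 8 higher and 4 lower of 30 ligands, with a median of 0.07, beside 12.1% higher and 11.6% lower of all genes. Without the 3 EtOH mice of high Ttr, 1 of 3 Slits, 3 of 9 plexins, 3 of 9 Epha receptors and 4 of 20 semaphorins were higher at that threshold, and without the deepest library of each group the counts of higher genes were those of all mice. Without the high-Ttr mice, 7 of 27 receptors and 6 of 31 ligands were higher and 1 and 3 were lower. The differences between families and between receptors and ligands were not tested.

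**Figure D1:**
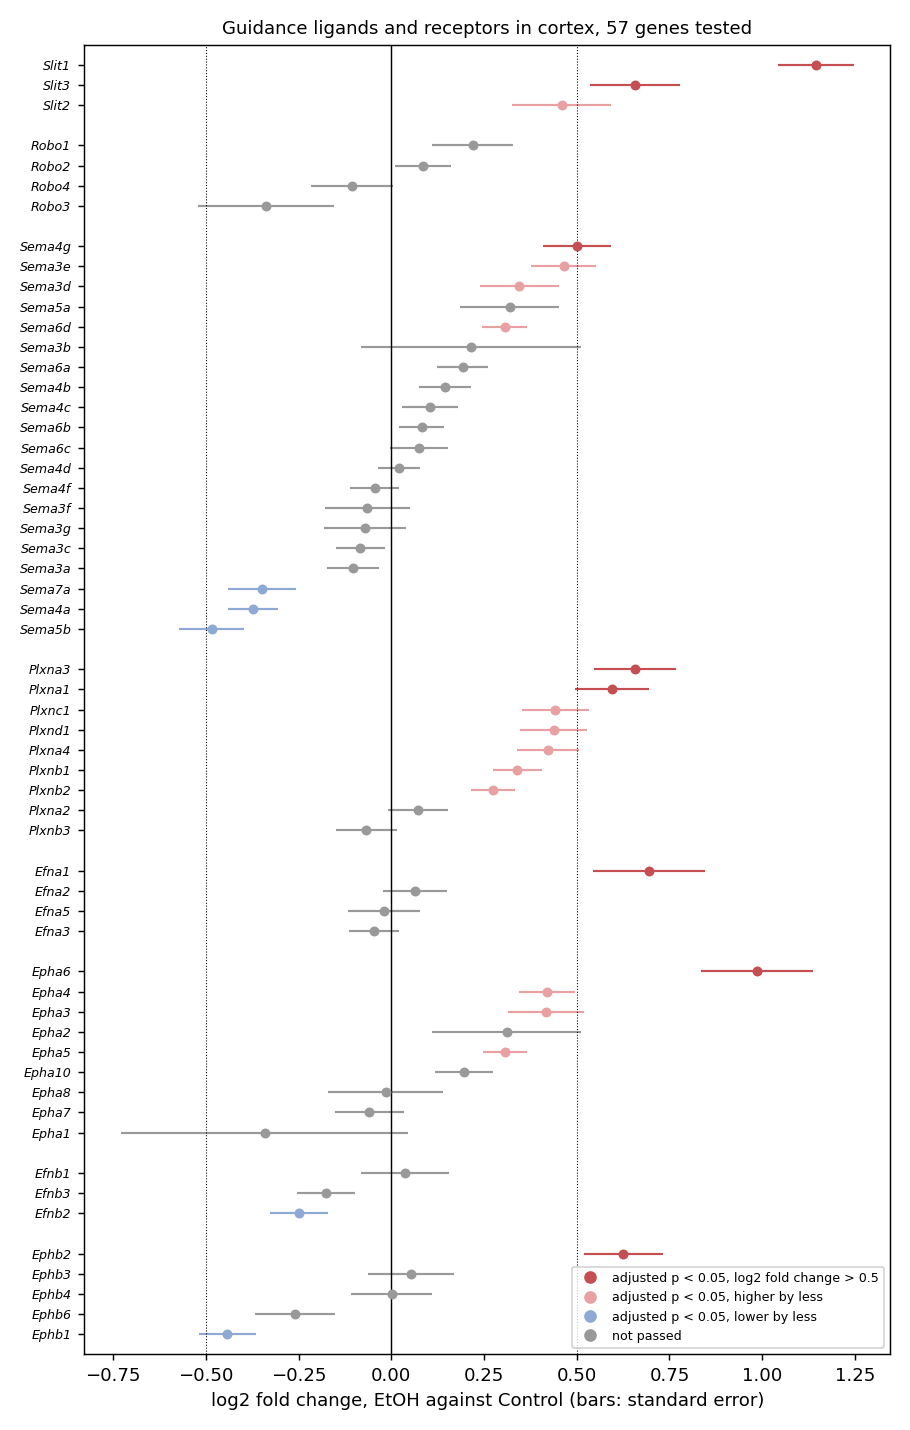
Log2 fold change of EtOH against Control for the 57 tested genes (x axis), grouped by family, with the standard error as bars; dotted lines mark 0.5 in either direction and colours mark the test result. Slit1 (1.14) and Epha6 (0.99) stand farthest to the right, and Sema5b (-0.48) and Ephb1 (-0.44) farthest to the left among genes at an adjusted p under 0.05.

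Promoter windows show a base composition that many of these genes share and that the symbol rule did not use. RefSeq windows (table of build GRCm38.p6) of 250 bases before the start were found for 51 member genes, 67 windows in all. A GC box, GGGCGG on either strand, was present in 47 of the 67 (70.1%), compared with 32.7% of the 32851 windows in the table. TATAAA was present in 2 (2.99% against 12.4%), the palindrome TGACGTCA of a cAMP response element in 1 (1.49% against 1.55%) and the palindrome CACGTG of an E-box in 4 (5.97% against 6.02%). Member windows held a median of 15 CpG dinucleotides and 64% G and C, where all windows held 6 and 52.4%. All windows come from 27025 genes, whether or not these were expressed in cortex, while 57 of 59 members passed the count filter. Some genes have several windows. A comparison with windows of the tested genes alone was not made. Among members called higher, 6 of 7 windows from 6 genes held a GC box (85.7%), and 41 of 60 windows of the other members did (68.3%). None of the 4 motifs contains another, and these are counts of letters in a window, not of bound sites. Windows for Slit1, Plxna1, Plxna4, Sema3b, Sema3f, Sema6a, Efnb3 and Plxna4os1 were not in the table.

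The windows of Epha6 and Plxna3, both called higher, are given because each ends directly at the annotated start of its gene and was found once in GRCm39, at chr16:60425895-60426144 on the minus strand and chrX:73372422-73372671 on the plus strand. They are written 5′ to 3′, with GC boxes in capitals.
Epha6: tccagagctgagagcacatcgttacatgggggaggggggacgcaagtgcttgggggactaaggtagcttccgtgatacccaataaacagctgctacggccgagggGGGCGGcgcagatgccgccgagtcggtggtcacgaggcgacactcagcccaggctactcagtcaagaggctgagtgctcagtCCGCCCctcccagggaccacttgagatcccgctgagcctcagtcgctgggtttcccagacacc
Plxna3: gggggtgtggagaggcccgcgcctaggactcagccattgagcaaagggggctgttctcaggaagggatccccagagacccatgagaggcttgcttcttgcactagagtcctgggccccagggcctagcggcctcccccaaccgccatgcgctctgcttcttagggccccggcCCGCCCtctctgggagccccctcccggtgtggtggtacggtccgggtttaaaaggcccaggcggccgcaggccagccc
The Epha6 window held 2 GC boxes, 1 in each direction, and 15 CpG dinucleotides, and the Plxna3 window held 1 GC box and 12 CpG dinucleotides.

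Slit1 was the most changed member. It lies at chr19:41588676-41732268 on the minus strand (GRCm39), and encodes a Slit made largely by neurons. Control mice ranged from 56.6 to 101 CPM with a median of 73.95, and EtOH mice 1 to 5 had 173, 154, 176, 189 and 148 CPM. The groups were far apart, since the lowest EtOH mouse was above the highest control. The means were 76.01 ± 13.4 CPM (SD, n = 7) and 168 ± 16.8 CPM (n = 5), a log2 fold change of 1.14 (SE 0.10, adjusted p = 4.68e-07, 2.21-fold). Leaving out any mouse moved the log2 fold change only between 1.08 and 1.22, and without EtOH mice 1, 3 and 4 it was 0.98 (adjusted p = 0.000292).

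Slit3, at chr11:35011789-35602786 on the plus strand, was called as well. Control mice had 31.4 to 54.04 CPM (median 35.6) and the EtOH mice 72.2, 48.6, 63.7, 65.5 and 58.4 CPM. EtOH mouse 2 lay below the highest control and the other 4 above it. This gave a log2 fold change of 0.66 (SE 0.12, adjusted p = 0.000872). It was no longer past the threshold without the 3 mice of high Ttr, at 0.44 (adjusted p = 0.109, 2 EtOH mice left). Exons of Slit3 overlap those of other annotated genes on the opposite strand over 423 bases, and whether the counting used the strand is not stated.

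Slit2, at chr5:48140480-48465075 on the plus strand, is the Slit best known for midline repulsion and also acts on vessels. Control mice had 26.04 to 55.4 CPM (median 36.05), and EtOH mice 56.6, 46.8, 53.8, 54.3 and 42.1 CPM. The ranges overlapped widely, because Control mouse 5 at 55.4 CPM stood above all EtOH mice but mouse 1. Slit2 was higher by a log2 fold change of 0.46 (SE 0.13, adjusted p = 0.0196), below the fold minimum. Without Control mouse 5 (0.58) or without EtOH mouse 5 (0.52) it passed that minimum, and without EtOH mouse 1 the adjusted p was 0.0536. Without the 3 mice of high Ttr Slit2 did not pass, at 0.26 (adjusted p = 0.425).

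The 3 Slits were all higher over the full set of mice, and their shares of the summed Slit level were compared per kilobase of exon. Slit1 made up 64.1 to 69.6% of that level in Control and 72.5 to 76.7% in EtOH mice. The ranges did not overlap. Slit2 went from 7.8 to 10.1% of the total to 5.9 to 6.6%, and Slit3 from 22 to 26.8% to 16.8 to 20.9%. The summed level itself was 12.6 ± 2.32 in Control and 24.95 ± 2.55 CPM per kilobase in EtOH mice. Lengths are those of all annotated exons together, 32.191 kb for Slit2, 13.024 kb for Slit3 and 9.02 kb for Slit1. A Slit with long unused exons would have a larger share than given here, and the same lengths were used in both groups.

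**Figure D2:**
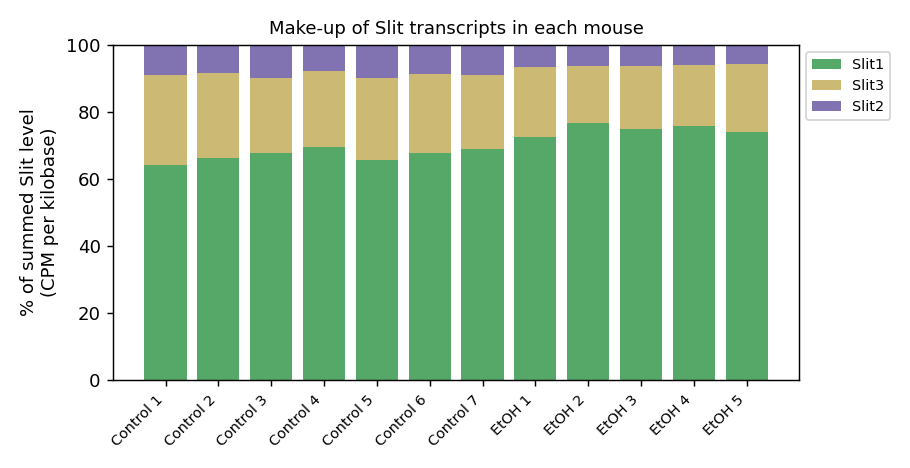
Share of each Slit gene (y axis, percent of the summed CPM per kilobase of exon) in each of the 12 mice (x axis). Lengths are those of all annotated exons together. Slit1 takes 64.1 to 69.6% in the Control mice and 72.5 to 76.7% in the EtOH mice.

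The Robo receptors showed no call beside the higher ligands. Robo1, a main Slit receptor of neurons, had 46.2 ± 7.60 CPM in Control and 53.8 ± 8.004 CPM in EtOH mice, with a log2 fold change of 0.22 (95% interval 0.01 to 0.43, adjusted p = 0.155). Robo2 had 129 ± 15.2 and 137 ± 10.4 CPM (log2 fold change 0.09, interval -0.06 to 0.23, adjusted p = 0.442). These intervals hold increases of up to 0.43 and 0.23, and are narrower than 95% intervals of the edgeR test. The unadjusted p of Robo1 in that test was 0.0603, so that its 95% interval would include 0. Robo4, the endothelial member, stood at 9.67 ± 0.768 and 8.998 ± 1.84 CPM (adjusted p = 0.516).

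Robo3 is the divergent receptor known from commissural axons. Per kilobase it had the highest level of the family in Control, 5.55 ± 1.23, next to 5.43 ± 0.639 CPM per kilobase of Robo2. This gap was smaller than their spread. Before division by length Robo2 was higher, with a Control mean of 129 CPM against 41.3 CPM for Robo3. The annotated exons of Robo2 measure 23.765 kb together and those of Robo3 7.442 kb, so that their order depends on these lengths. Control mice ranged from 31.5 to 51.6 CPM (median 41.5) and EtOH mice had 28.2, 51.7, 21.6, 27.3 and 34.5 CPM. EtOH mouse 2 was as high as the highest control and EtOH mice 1, 3 and 4 were below the lowest. The log2 fold change was -0.34 (interval -0.70 to 0.02, adjusted p = 0.19), and without EtOH mouse 2 it was -0.57 (adjusted p = 0.0129). Without EtOH mice 1, 3 and 4 the sign turned, at 0.06 (adjusted p = 0.901). Robo3 and Robo4 are neighbours on chromosome 9, read in opposite directions and 0.554 kb apart.

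Of 9 plexins, 7 were higher and none lower at an adjusted p under 0.05. Plxna1, at chr6:89288589-89339619 on the minus strand, is a receptor for class 3 semaphorins together with neuropilins and for Sema6d. Control mice had 79.9 to 130.05 CPM (median 119) and EtOH mice 158, 152, 171, 188 and 164 CPM, with all EtOH mice above all controls. Plxna1 thus rose by 0.60 on the log2 scale (SE 0.10, adjusted p = 0.000352). Its exons overlap a gene on the opposite strand over 970 bases.

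Plxna3, at chrX:73372672-73388295 on the plus strand, another neuropilin-associated receptor, had 26.9 to 41.5 CPM (median 32.3) in Control and 47.7, 43.4, 60.3, 59.8 and 54.5 CPM in EtOH mice. The groups did not overlap, although EtOH mouse 2 came close to the highest controls. Between the groups the log2 fold change was 0.66 (SE 0.11, adjusted p = 0.000376). Plxna4, the third of these receptors to rise, had 118 ± 17.4 CPM in Control and 158 ± 6.81 CPM in EtOH mice, by 0.42 (SE 0.08, adjusted p = 0.00147). Plxna2 did not pass, at 190.5 ± 27.4 and 200.1 ± 7.89 CPM, with a log2 fold change of 0.07 (interval -0.09 to 0.23). The antisense RNA Plxna4os1, near the floor in both groups, lies within Plxna4.

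Among the B, C and D plexins, Plxnb1, the receptor of Sema4d, was higher in every EtOH mouse than in every control, at 89.96 ± 8.97 against 114 ± 5.53 CPM (log2 fold change 0.34, SE 0.07, adjusted p = 0.00132). Plxnb2, a receptor of class 4 semaphorins found in progenitors and glia, was also separated between the groups, at 66.8 ± 5.39 against 80.7 ± 3.89 CPM (0.27, SE 0.06, adjusted p = 0.00324). Plxnb3 did not pass (29.04 ± 3.41 and 27.7 ± 2.35 CPM, interval of the log2 fold change -0.23 to 0.09).

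Plxnc1, the receptor of Sema7a, had 48.5 to 59.1 CPM in Control and 84.8, 54.7, 81.5, 82.6 and 66.3 CPM in EtOH mice, so that EtOH mouse 2 stayed within the control range. Its log2 fold change was 0.44 (SE 0.09, adjusted p = 0.00209). Plxnd1, the receptor of Sema3e, had the highest plexin level per kilobase, with 115 to 149 CPM in Control and 181, 130.02, 175, 215 and 182 CPM in EtOH mice. Again EtOH mouse 2 was within the control range and the others were above it, with a log2 fold change of 0.44 (SE 0.09, adjusted p = 0.00217). Without EtOH mouse 2 both were past the fold minimum (0.53 and 0.52). Without the 3 mice of high Ttr, of which mouse 2 is not one, Plxnb1, Plxnb2, Plxnc1 and Plxnd1 were no longer past the threshold (log2 fold changes 0.28, 0.20, 0.15 and 0.25).

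Of 20 semaphorins, 4 were higher (20%) and 3 lower (15%) at an adjusted p under 0.05, beside 12.1% and 11.6% of all genes, and 1 (5%) was called higher, beside 4.20%. Sema4g, a transmembrane class 4 member at chr19:44977540-44991836 on the plus strand, was the gene called. Control mice had 28.9 to 37.7 CPM (median 30.8) and EtOH mice 39.03, 38.6, 55.2, 49.9 and 44.4 CPM, with every EtOH mouse above every control. Its log2 fold change of 0.50 (SE 0.09, adjusted p = 0.000857) lay at the fold minimum, so that the call was kept in 5 of 12 fits that left out a mouse, while the adjusted p stayed under 0.05 in all 12. The mice whose omission ended the call were Control mice 1 to 5 and EtOH mice 3 and 4 (0.42 to 0.50). The call was also lost with limma voom, with upper quartile factors and without the 3 mice of high Ttr, where the log2 fold change was 0.37. Exons of Sema4g overlap Mrpl43 on the opposite strand over 1181 bases.

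Sema3e, a secreted ligand of Plxnd1 that acts without a neuropilin, had 26.6 to 36.04 CPM in Control and 41.7, 53.8, 42.8, 40.9 and 38.9 CPM in EtOH mice, without overlap. Its log2 fold change was 0.46 (SE 0.09, adjusted p = 0.000989), and EtOH mouse 2 was the highest of all mice. Without EtOH mouse 5, or without the 3 mice of high Ttr, it was just past the fold minimum (0.50 and 0.54). Sema6d, a transmembrane ligand of Plxna1, was higher in all EtOH mice, at 79.4 ± 6.14 against 98.1 ± 6.39 CPM (0.31, SE 0.06, adjusted p = 0.00157). Sema3d, secreted and of low level, had 5.81 ± 0.436 and 7.38 ± 1.24 CPM (0.35, SE 0.11, adjusted p = 0.0264), and lost its place under the threshold without Control mouse 1, 3 or 4 or EtOH mouse 1 or 3 (adjusted p 0.0505 to 0.0854), without the deepest library of each group (0.0646) and without the 3 mice of high Ttr, where its log2 fold change was 0.10 (adjusted p = 0.682).

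Against these, 3 semaphorins were lower. Sema5b, a transmembrane protein with thrombospondin repeats, had 25.02 to 31.4 CPM (median 31.2) in Control and 19.4, 23.4, 17.4, 22.8 and 20.3 CPM in EtOH mice. All EtOH mice were below all controls. Sema5b had a log2 fold change of -0.48 (SE 0.09, adjusted p = 0.000668), close to the fold minimum, which it passed without Control mouse 2, 6 or 7 or EtOH mouse 2 or 4 (-0.51 to -0.54).

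Sema4a, a transmembrane class 4 member also known from the immune system, had 59.95 to 78.03 CPM (median 72.5) in Control and 49.7, 53.5, 53.6, 60.1 and 55.5 CPM in EtOH mice, of which 4 were below all controls. Its log2 fold change was -0.37 (SE 0.07, adjusted p = 0.000704). Sema7a, which is anchored by a lipid and signals through Plxnc1 and integrins, had 165 to 194 CPM (median 178) in Control and 137, 175, 109.96, 127 and 155 CPM in EtOH mice. EtOH mouse 2 was within the control range and the other 4 were below it, by a log2 fold change of -0.35 (SE 0.09, adjusted p = 0.0103). Without the 3 mice of high Ttr the value was -0.13 (adjusted p = 0.402).

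The remaining 13 semaphorins did not pass. Their log2 fold changes ran from -0.10 for Sema3a, the founding secreted repellent, to 0.32 for Sema5a (interval 0.06 to 0.58), and Sema6a was nearest to the threshold (0.19, adjusted p = 0.0509). Sema6b, second only to Sema7a in this family per kilobase, had 155 ± 9.28 and 164 ± 14.2 CPM (interval -0.04 to 0.20). By class, 2 of 7 secreted class 3 genes were higher and none lower, and class 4 held 1 higher and 1 lower of 6. Class 6 held 1 higher of 4, and class 5 held 1 lower of 2.

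Epha6 had the largest change among the receptors. It lies at chr16:59473846-60425894 on the minus strand and encodes an ephrin-A receptor of neurons. Control mice had 6.94 to 15.05 CPM (median 9.10) and EtOH mice 24.9, 17.9, 18.8, 18.6 and 18.9 CPM. EtOH mouse 1 stood above the other 4, which lay close together and above every control. Epha6 had a log2 fold change of 0.99 (SE 0.15, adjusted p = 0.000148, 1.98-fold), between 0.89 and 1.11 with any mouse left out and 0.87 without the 3 mice of high Ttr (adjusted p = 0.0159). The gene overlaps exons of Gm9017 on the opposite strand over 413 bases.

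Epha4, which binds ephrins of both classes and is known from dendritic spines, was the most abundant Epha gene per kilobase. It had 149 to 192 CPM (median 180.2) in Control and 247, 279, 215, 219 and 212 CPM in EtOH mice, all above the controls. Epha4 rose by 0.42 on the log2 scale (SE 0.08, adjusted p = 0.00067). Epha5 (99.1 ± 7.60 against 123 ± 7.22 CPM, 0.31, adjusted p = 0.00124) and Epha3 (6.94 ± 0.635 against 9.26 ± 1.40 CPM, 0.42, adjusted p = 0.00701), receptors of ephrin-A known from topographic maps, were higher too. Epha3 did not pass without the 3 mice of high Ttr (0.30, adjusted p = 0.168). Epha1, Epha2, Epha7, Epha8 and Epha10 did not pass. Epha7 stood at 73.7 ± 8.01 CPM in Control and 70.7 ± 11.5 CPM in EtOH mice.

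Ephb2, a receptor that gathers NMDA receptors at synapses, lies at chr4:136374850-136563351 on the minus strand. Control mice had 14.2 to 23.4 CPM (median 18.03) and EtOH mice 28.1, 31.9, 24.4, 31.01 and 28.2 CPM, without overlap. The log2 fold change was 0.63 (SE 0.11, adjusted p = 0.000426), and 0.68 without the 3 mice of high Ttr. Exons of Ephb2 overlap a gene on the opposite strand over 636 bases.

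Ephb1 went the other way. Control mice had 51.1 to 60.2 CPM (median 53.7) and EtOH mice 42, 47.8, 32.5, 37.8 and 40.9 CPM, all below the controls. Its log2 fold change was -0.44 (SE 0.08, adjusted p = 0.00052), and without EtOH mouse 2 it passed the fold minimum (-0.52). Ephb6, which lacks kinase activity, had the highest Ephb level per kilobase, with 154 ± 21.3 and 129 ± 22 CPM (-0.26, adjusted p = 0.0894), and was past the threshold without Control mouse 2 (-0.32) or EtOH mouse 2 (-0.35). Ephb3 and Ephb4 had log2 fold changes of 0.05 (interval -0.17 to 0.28) and 0.00 (interval -0.21 to 0.21). Within the family, the share of Ephb2 in the summed level per kilobase was 3.74 to 4.84% in Control and 6.71 to 7.93% in EtOH mice.

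Of the ligands of these receptors, Efna1, a lipid-anchored ephrin also made by vessels, was called. It lies at chr3:89179037-89188449 on the minus strand, and rested on 70 to 264 counts a mouse. Control mice had 2.19 to 3.89 CPM (median 2.97) and EtOH mice 6.12, 5.04, 4.71, 4.07 and 5.32 CPM, without overlap, though EtOH mouse 4 lay near the highest controls. The log2 fold change was 0.69 (SE 0.15, adjusted p = 0.00308). Efna3, known from astrocytes and the highest Efna level per kilobase, had 46.02 ± 3.38 and 44.5 ± 3.86 CPM (interval of the log2 fold change -0.18 to 0.08). Efna2 (-0.11 to 0.24) and Efna5 (-0.21 to 0.17) did not pass either, while Efna1, Efna3 and Efna4 lie in a row on chromosome 3 with gaps of 32.754 and 10.423 kb.

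Efnb2, a transmembrane ephrin of neurons and arteries, had 54.8 to 78.1 CPM (median 66.3) in Control and 57.99, 48.1, 58.4, 59.9 and 53.5 CPM in EtOH mice. The groups overlapped, with 2 EtOH mice below every control. The log2 fold change was -0.25 (SE 0.08, adjusted p = 0.0289). It was not past the threshold without EtOH mouse 2 or 5 (adjusted p 0.0631 and 0.0637) or without the deepest library of each group (0.0544). Without the 3 mice of high Ttr it stayed past the threshold, at -0.38 (adjusted p = 0.044). Efnb3, a midline ephrin with the second-highest level per kilobase of all members, had 135 ± 11.97 and 119.5 ± 15.1 CPM (-0.18, adjusted p = 0.109), and was past the threshold without EtOH mouse 3 (-0.26, adjusted p = 0.0129). Efnb1 had an interval of -0.19 to 0.27.

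**Figure D3:**
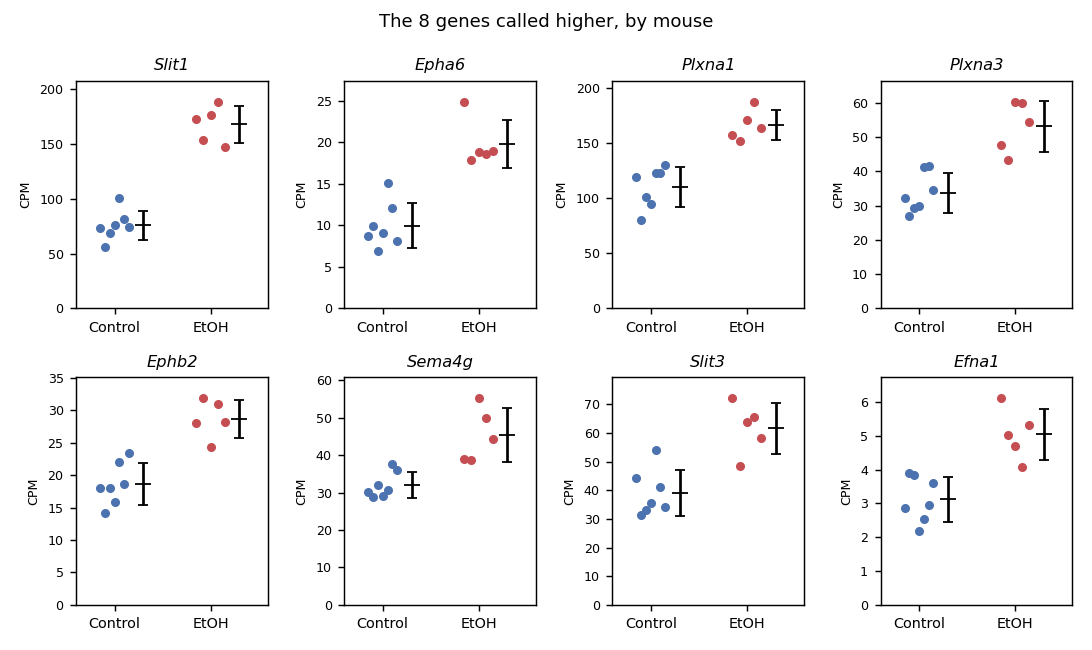
Levels in CPM (y axes from 0) of the 8 genes called higher, with a point for each of 7 Control and 5 EtOH mice and the mean with SD as bars. The groups do not overlap for any of the 8 genes except Slit3, where EtOH mouse 2 (48.6 CPM) lies below the highest control (54.04 CPM).

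**Figure D4:**
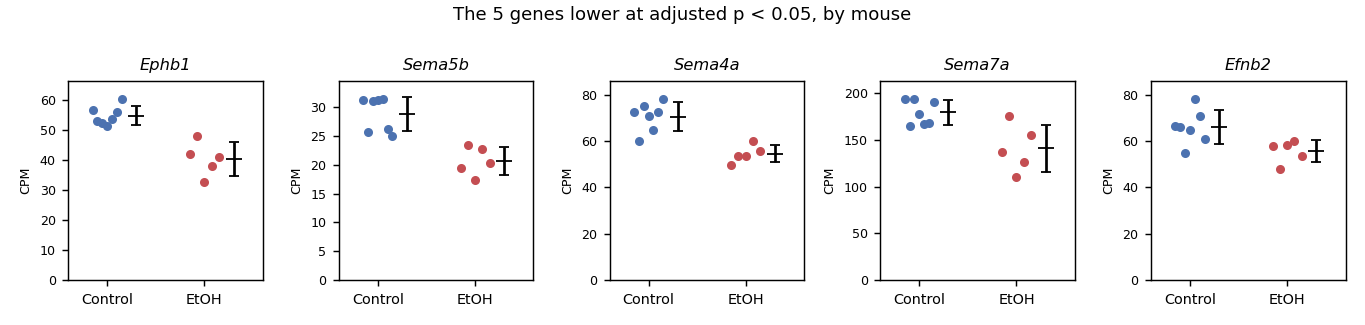
Levels in CPM (y axes from 0) of the 5 genes lower at an adjusted p under 0.05, with a point for each of 7 Control and 5 EtOH mice and the mean with SD as bars. Ephb1 and Sema5b do not overlap between the groups, while Sema4a, Sema7a and Efnb2 do.

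Set in order by control level per kilobase of exon, the 58 ligand and receptor genes spanned from 54.03 ± 3.93 CPM per kilobase for Sema7a to 0.108 ± 0.0566 for Epha1. After Sema7a came Efnb3 (38.2 ± 3.39), Sema6b (23.03 ± 1.38), Epha4 (21.3 ± 1.84), Ephb6 (20.4 ± 2.82), Efna3 (18.6 ± 1.37) and Plxnd1 (16.4 ± 1.28). The gaps from Sema7a to Efnb3 and from Efnb3 to Sema6b were larger than the combined spread of the neighbours, and those between Sema6b, Epha4, Ephb6 and Efna3 were not. Further down, the long run from Efnb2 to Robo4 held no gap larger than the spread. Slit1 rose from place 11 in Control (8.43 ± 1.49) to place 6 in EtOH mice (18.6 ± 1.86), Epha6 from 45 to 34 and Plxna3 from 30 to 19, while Sema5b went from 32 to 43. Lowest were Sema3b, Epha2, Efna4 and Epha1. Lengths are those of all annotated exons together, so that a gene with long unused exons appears lower than it is.

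**Figure D5:**
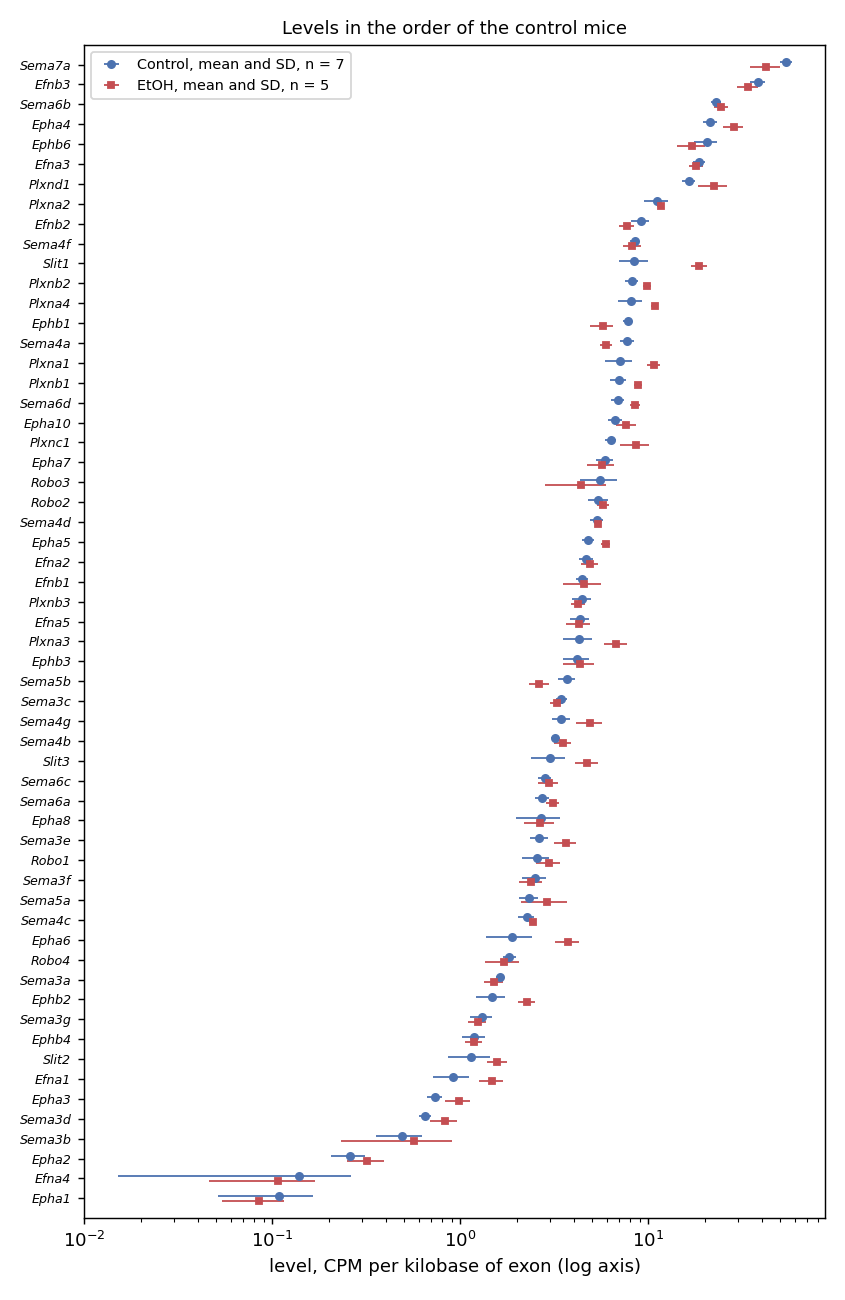
Level of 58 genes in CPM per kilobase of exon (x axis, log scale), ordered from high to low by the Control mean; points are means and bars SD, blue for 7 Control and red for 5 EtOH mice. Sema7a is highest at 54.03 in Control and 42.4 in EtOH mice, and Slit1 moves from 8.43 to 18.6.

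Positions grouped few of the changed genes. The members lie on 19 chromosomes, and the class 3 genes Sema3d, Sema3a and Sema3e stand in a row on chromosome 5, with gaps of 536.359 and 421.712 kb. Of these, Sema3d and Sema3e were higher and Sema3a did not pass. Ephb2 and Epha8 are 93.379 kb apart on chromosome 4, the former called higher and the latter not passed (interval -0.32 to 0.29). Exons of 31 of the 59 members overlap those of another gene annotated in Gencode release 39, where reads may not be assigned with certainty. The counts were made with release 28, and overlaps in that release were not checked.

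Beyond the 8 families, 88 partner genes of the same pathways were listed by function, and 87 were tested. The remaining gene, Timd2, reached at most 0.128 CPM in Control and 0 counts in EtOH mice, which allows up to the floor of 3 counts. Of the 87, 8 were called higher and 3 lower, with a median log2 fold change of 0.08, where 4.20% and 4.09% of all genes were called. At an adjusted p under 0.05 without a fold minimum, 28 were higher and 9 lower, where 12.1% and 11.6% of all genes were.

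Of 10 tested co-receptors and adhesion partners of semaphorins, 2 were called higher, beside 4.20% of all genes. Nrp1, the neuropilin that carries class 3 semaphorins to plexins, had 13.9 to 20.03 CPM in Control and 28.2 to 39.4 CPM in EtOH mice (log2 fold change 1.02, SE 0.10, adjusted p = 1.09e-06). Met, the HGF receptor that associates with plexin B, had 2.82 to 5.33 against 11.4 to 15.1 CPM (1.72, SE 0.12, adjusted p = 4.37e-08). Both genes were separated between the groups. Nrp2, the other neuropilin, did not pass (0.27, interval -0.05 to 0.58).

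Among 19 netrins, other guidance ligands and their receptors, 3 were called higher and 1 lower, beside 4.20% and 4.09% of all genes. Ntn1, the founding netrin, was lower, at 15.5 ± 3.22 against 9.86 ± 1.09 CPM (-0.65, SE 0.13, adjusted p = 0.002), with 3 of 5 EtOH mice below every control. Ntn5 (1.90, SE 0.17), the lipid-anchored Ntng1 (1.14, SE 0.14) and the netrin receptor Unc5d (0.76, SE 0.09) were higher, each in every EtOH mouse. Ntn5 had 1.78 to 3.91 CPM in Control and 9.72 to 16.99 CPM in EtOH mice. Exons of Ntn5 overlap Sec1 on the opposite strand over 769 bases. The netrin receptor Dcc was higher by less than the fold minimum (0.48, adjusted p = 0.00363).

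In the cytoplasm, 1 of 17 plexin effectors was called, Dpysl3, a collapsin response mediator (40.3 ± 4.29 against 59.3 ± 6.80 CPM, 0.56, adjusted p = 0.000114). Of 19 Eph effectors, Ngef, the exchange factor ephexin that acts below Epha4, was lower (375 ± 16.96 against 221 ± 32.6 CPM, -0.77, adjusted p = 2.06e-06), and Tiam1, a Rac exchange factor, was higher (0.57, adjusted p = 0.000672). Of 11 Robo effectors, Srgap1, a GTPase-activating protein that binds Robo, was lower (32.7 ± 5.14 against 21.3 ± 1.46 CPM, -0.62, adjusted p = 0.000204) and Arhgap39 was higher (0.53, adjusted p = 0.00016). These 5 genes were separated between the groups. Arhgap39 fell under the fold minimum without Control mouse 2 (0.48), and Dpysl3 (0.39) and Tiam1 (0.47) did without the 3 mice of high Ttr. None of 11 shared actin regulators was called, with 1 higher and 3 lower without a fold minimum. Of all genes, 4.20% were called higher and 4.09% lower, and 12.1% and 11.6% without a fold minimum. Whether the counts of these short lists differ from those shares was not tested.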

How the data were processed

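Cortical RNA of 7 Control and 5 EtOH mice was sequenced on the DNBSEQ platform. According to the methods and the submitters' processing notes, reads were checked with FastQC 0.11.9, aligned with STAR to GRCm39 with the Gencode Release 28 annotation and counted on genes with featureCounts; strand and multi-mapping settings are not stated, and the comparison used DESeq2. The authors deposited 1 table of expected counts per gene symbol without normalization, not whole for 61 symbols and for 0 members, and these were rounded here. Columns were matched to mice by name, with 0 left unmatched.

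Genes were kept by filterByExpr (16059 genes), scaled by TMM and tested by quasi-likelihood in edgeR, with p-values adjusted by Benjamini-Hochberg over all of them (R 4.3.3, edgeR 4.0.16, limma 3.58.1). Calls needed an adjusted p under 0.05 together with more than 0.5 on the log2 scale in either direction, the cutoffs of the study. Intervals span 1.96 standard errors each way, a value from the normal distribution, and are narrower than 95% intervals of the quasi-likelihood test. Replicate numbers name different mice in each group, so that no block was used. Values are CPM with TMM factors (0.982 to 1.02), and levels between genes are per kilobase of all exons in Gencode release 39. The fits were tested on simulated data.

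Members, gene lists and alternatives were chosen with earlier results of these data known. Named are all members at an adjusted p under 0.05, the member with the highest control level per kilobase in each family, and called partner genes. Further members are given by level or interval, and Nrp2, Dcc, Fezf2, Lamp5, Emcn and Dcn were added after their values were seen. The comparison was repeated with limma voom, with DESeq2 1.42.0, with upper quartile or relative log expression factors, other filters and fold minimums, a replicate block, and without each mouse. Leaving out the deepest library of each group, or the 3 EtOH mice above 90 CPM of Ttr, was added after seeing the data.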

Additional observations from a re-analysis of the deposited data

Results flagged for a closer look

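In 11 of 120 groups of values (each of 59 genes, and the total counts, in Control and in EtOH mice), the highest or lowest mouse stood farther from its nearest neighbour than Dixon's 95% limit allows; chance alone gives about 6. Total counts were far above the others in Control mouse 5 (40690226, next 32356909) and EtOH mouse 1 (42183031, next 33313165). Control mouse 5 was also the highest control for Slit2 (55.4 CPM, next 37.6) and the lowest for Efna3 (38.9 CPM, next 45.4). EtOH mouse 1 was the highest of its group for Epha6 (24.9 CPM, next 18.9) and Robo2 (155 CPM, next 136). Sema3e was high in EtOH mouse 2 (53.8 CPM, next 42.8) and Efnb3 in EtOH mouse 3 (146 CPM, next 117). Among controls, Ephb4 was high in mouse 6 (7.62 CPM, next 6.31), Sema3c low in mouse 3 (24.4 CPM, next 27.8) and Sema3f low in mouse 7 (9.56 CPM, next 14.2). Without both of the deepest libraries 9 members were called higher, the 8 of the full comparison and Slit2.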

How the results depend on the processing

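The number of members called higher (8) was 7 or 8 with DESeq2, limma voom, other scaling factors, other filters and the replicate block, always from the same 8 genes, and 7 to 10 with each mouse left out, where Sema4g was the only gene lost in any of the 12 fits and 10 were called without EtOH mouse 2 (Plxnc1 and Plxnd1 added) or 5 (Sema3e and Slit2 added). It was 20 without a fold minimum and 1 (Slit1) at a log2 fold change above 1. Members called lower (0) became 5 without a fold minimum, 1 (Sema5b) with the replicate block, and 0 to 3 with a mouse left out, 3 without EtOH mouse 2 (Ephb1, Sema5b and Robo3) and 1 without Control mouse 2, 6 or 7 or EtOH mouse 4. Partner genes called higher (8) were 28 and 4 at those fold minimums, and lower (3) were 9 and 0; with a mouse left out they were 7 to 10 and 3 to 4. Without the 3 EtOH mice of high Ttr, 8 members were called higher, 6 of them shared with the full comparison (Slit3 and Sema4g lost, Sema3e and Sema5a added), members at an adjusted p under 0.05 fell from 25 to 17, and Robo3 turned to 0.055 from -0.34; only 2 EtOH mice remain there, and the cause was not tested. Of 840 fold changes of 40 named genes, 814 kept their direction and side of the adjusted p threshold, 21 lost it, 4 gained it and 1 reversed. The fold minimum is left aside in this tally, and some of the 814 crossed it, among them values of Sema4g, Sema5b and Slit2. Replicate numbers did not pair the mice (correlations of same-numbered mice -0.11 to 0.02), and under the replicate block Efnb2 (adjusted p 0.0684) and Sema3d (0.0878) no longer passed the threshold. Genes near 1 CPM, such as Epha1 and Epha2, rest on few counts.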
